A study of Mus musculus with 17 samples.

Results

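The Notch pathway was examined through 10 of its genes, taken by symbol from the 26556 genes of the count tables: the receptors *Notch1*, *Notch2* and *Notch3*, the ligands *Dll1*, *Dll3* and *Jag1*, the DNA-binding effector *Rbpj*, and the target genes *Hes1*, *Hes5* and *Hey1*. They were chosen by name, with earlier results of these data known. RNA was sequenced from astrocytes of *Gfap::GFP* mice of the FVB strain at postnatal day 7, sorted by fluorescence-activated cell sorting (FACS), in 17 libraries. Cortex (primary somatosensory, S1) gave 4 libraries, and the thalamus gave 13, namely 5 from the dorsolateral geniculate nucleus (dLG), 4 from the ventral posteromedial nucleus (VPM) and 4 from the ventral division of the medial geniculate nucleus (MGv). All groups share the reporter, in which the *Gfap* promoter drives green fluorescent protein, and the labels give no treatment. Each library pools 4 brains, so the spread between libraries is a spread between pools.

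Notch receptors are transmembrane proteins that bind ligands of the Delta and Jagged families on a neighbouring cell. Binding leads to cleavage of the receptor, and its intracellular domain enters the nucleus and joins *Rbpj* on DNA, where it activates genes of the Hes and Hey families. These encode basic helix-loop-helix repressors that hold back neuronal differentiation, and in the developing brain the pathway is known for keeping progenitors undifferentiated and for favouring astrocytes over neurons.

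*Rbpj* is known to bind the core sequence TGGGAA, and *Hes5* is a textbook direct target, so the sequence upstream of the *Hes5* start is shown with each match on either strand (TGGGAA or TTCCCA) in capitals. It was copied from RefSeq's promoter set (GRCm38.p6), covers the 250 bases before the start on the plus strand, and lies at chr4:154960673-154960922.
Hes5: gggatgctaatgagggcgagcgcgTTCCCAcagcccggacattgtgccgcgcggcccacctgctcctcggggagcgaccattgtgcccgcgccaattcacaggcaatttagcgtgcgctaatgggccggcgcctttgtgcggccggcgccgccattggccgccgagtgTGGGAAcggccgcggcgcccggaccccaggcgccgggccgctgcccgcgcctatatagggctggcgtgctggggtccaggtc
The matches start at positions -226 and -82 from the annotated start, and both are also matches of the longer form GTGGGAA, which contains the core. Of 32851 promoters of 300 bases (250 before and 50 after the start), 25.6% held the core on either strand, 6.38% held GTGGGAA, and 0.256% held GTGGGAA at least 2 times. RefSeq entries were matched for 8 of the 10 genes, and besides *Hes5* only *Rbpj* itself held the core, shown here as 2 windows of 30 bases on its plus strand, at chr5:53590185-53590214 and chr5:53590269-53590298.
Rbpj, position -149: aatgaaaaaggcTGGGAAcccgcggcgagc
Rbpj, position -65: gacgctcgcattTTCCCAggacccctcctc
Neither *Rbpj* match extends to GTGGGAA, and the windows of *Notch1*, *Notch2*, *Notch3*, *Dll1*, *Dll3* and *Jag1* held no match of the core. A match describes letters and was not tested for binding.

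The smallest library held 18213687 counts and the largest, cortex a, 50366363. Genes with any count numbered 17749 in dLG c (21371571 counts) and 21052 (dLG e) to 23365 (cortex a) in the other libraries. Levels are given as CPM, the count scaled to the library's size with TMM factors, and a total of 3 counts was worth 0.0596 to 0.165 CPM, a floor that covers counting error only. Summed over 8 astrocyte markers, the level ranged from 12253 to 13126 CPM in cortex (median 12912) and from 5716 to 14905 CPM in the thalamus (median 7948). The 14905 CPM belonged to MGv c, in which *Gfap* gave 5519 CPM of the sum. All other thalamic libraries lay below every cortical one, with dLG c highest at 8620 CPM. Single markers did not all follow the sum. Mean CPM in cortex and thalamus was 5227 and 1586 for *Slc1a3*, 1721 and 838 for *Aldoc*, and 864 and 386 for *Slc1a2*. *Gja1* (1660 and 1430) and *Sox9* (713 and 615) were also lower. *Aqp4* (1558 and 1930), *Aldh1l1* (564 and 604) and *Gfap* (494 and 782) had higher means in the thalamus. In thalamus against cortex 3 of the 8 were called lower and 0 higher (5.93% and 5.45% of all genes). *Gfap*, which drives the reporter, ranged from 450.0 to 537 CPM in cortex, from 78.2 to 1308 in dLG, from 36.1 to 5519 in MGv and from only 8.98 to 19.2 in VPM. Markers of the oligodendrocyte lineage (7 genes) summed to between 6120 and 11113 CPM in all libraries and were highest in VPM, with a median of 9393 CPM, and 10 neuron markers to between 944 and 2386 CPM. Endothelial, microglia and ependymal lists summed to at most 57.7, 91.8 and 108 CPM, with *Cdh5* at 0 in all MGv libraries and *Tmem212* at 0 in all dLG and VPM libraries. Bulk libraries cannot tell fewer cells of a type from less RNA per cell. Library numbers in the labels fall into 3 series, MGv has libraries of 1 series only, and dLG c is the only library of its series.

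Per length of exon (TPM, the level divided by exonic length and scaled to the library), *Hes5* was the highest of the 10 genes in every group, with a mean of 1031 TPM in cortex, 1793 in dLG, 554 in VPM and 2481 in MGv. *Hes1*, *Hey1* and *Dll3* followed at means of 122 to 454 TPM, and *Dll1* lay at 57.6 to 61.9 TPM in all 4 groups. The receptors were lower: *Notch1* and *Notch3* had means of 9.14 to 36.2 TPM and *Notch2* of 2.33 to 6.30 TPM, near *Jag1* at 3.89 to 7.26 TPM. By this measure *Rbpj* was the lowest, at 1.62 to 3.29 TPM. Its exonic length joins all annotated exons (12750 bases) and far exceeds its longest transcript (5485 bases), which lowers its TPM. For *Notch2* these lengths were 10782 and 10500 bases, and for *Jag1* 5827 and 5612. The place of *Rbpj* below *Notch2* and *Jag1* therefore depends on the length used. In VPM the means of *Notch1* (9.14 TPM) and *Notch3* (9.34 TPM) differed by less than their spread between libraries.

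**Figure D1:**
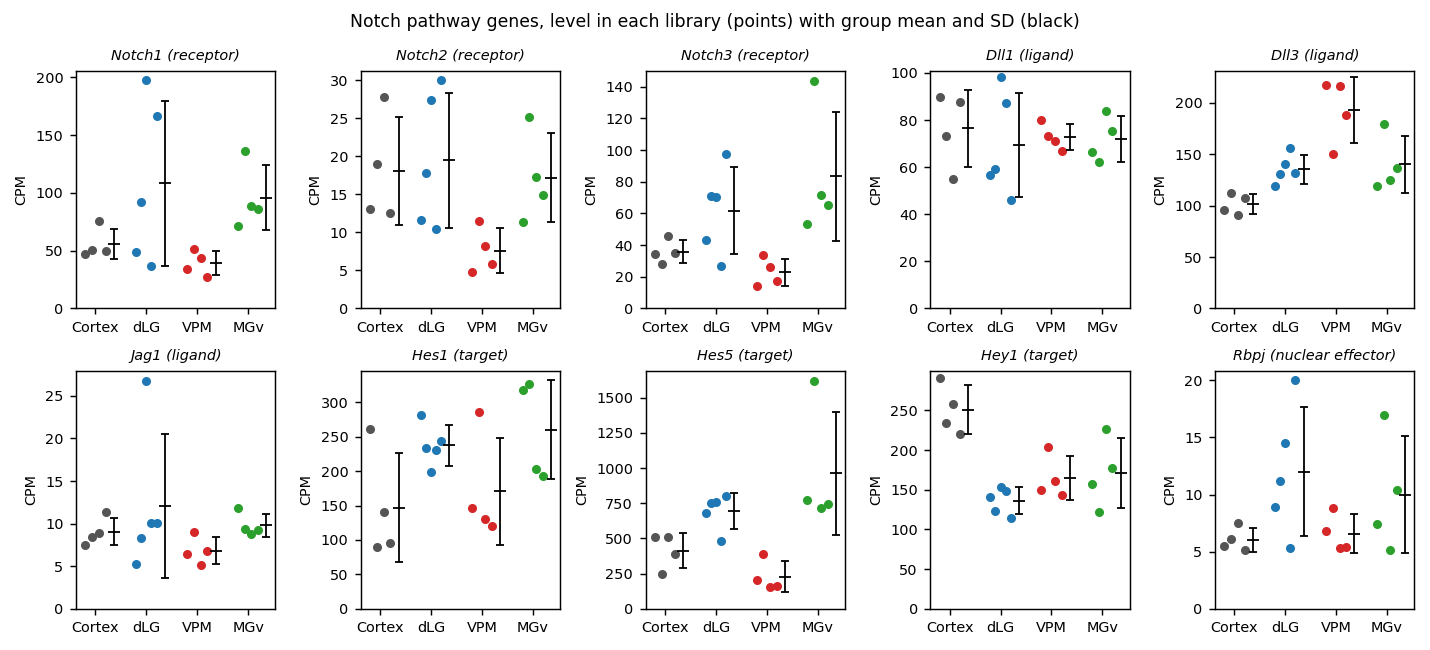
Level of each of the 10 genes in CPM (linear axis from 0), 1 point per library in cortex (grey), dLG (blue), VPM (red) and MGv (green), with the group mean and SD in black beside the points. The 13 thalamic points of *Dll3* all lie above the 4 cortical ones, the dLG and VPM points of *Hey1* all lie below the cortical ones, and *Hes5* is lowest in VPM and reached 1615 CPM in 1 MGv library.

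The 10 genes were compared between thalamus and cortex, between each nucleus and cortex, and between the nuclei, with edgeR's quasi-likelihood test, and a gene was called when its Benjamini-Hochberg adjusted p over all genes tested was under 0.1. Between thalamus and cortex 1 gene rose (*Dll3*) and 1 fell (*Hey1*), where 5.45% of 17856 genes were called higher and 5.93% lower. In dLG against cortex 2 rose (*Dll3* and *Rbpj*) and 1 fell (*Hey1*), where 10.3% of genes were higher and 9.04% lower. In VPM against cortex 1 rose (*Dll3*) and 2 fell (*Notch2* and *Hey1*), where 3.56% were higher and 5.44% lower. In MGv against cortex 3 rose (*Notch3*, *Dll3* and *Hes5*) and 1 fell (*Hey1*), where 7.87% were higher and 7.51% lower. These 3 contrasts share the 4 cortical libraries and are not independent. Between nuclei, 4 genes were higher in dLG than in VPM (*Notch1*, *Notch2*, *Notch3* and *Hes5*) and 1 lower (*Dll3*), where 6.48% of 17319 genes were higher and 3.16% lower. In VPM against MGv 4 fell (*Notch1*, *Notch2*, *Notch3* and *Hes5*) and 0 rose, 6 had an unadjusted p under 0.05, DESeq2 called 5 lower and 1 higher, and 6.89% of genes were lower and 4.53% higher. In dLG against MGv edgeR and DESeq2 both called 0 of the 10 genes and 0 had an unadjusted p under 0.05, where 0.37% of genes were higher and 0.277% lower.

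**Figure D2:**
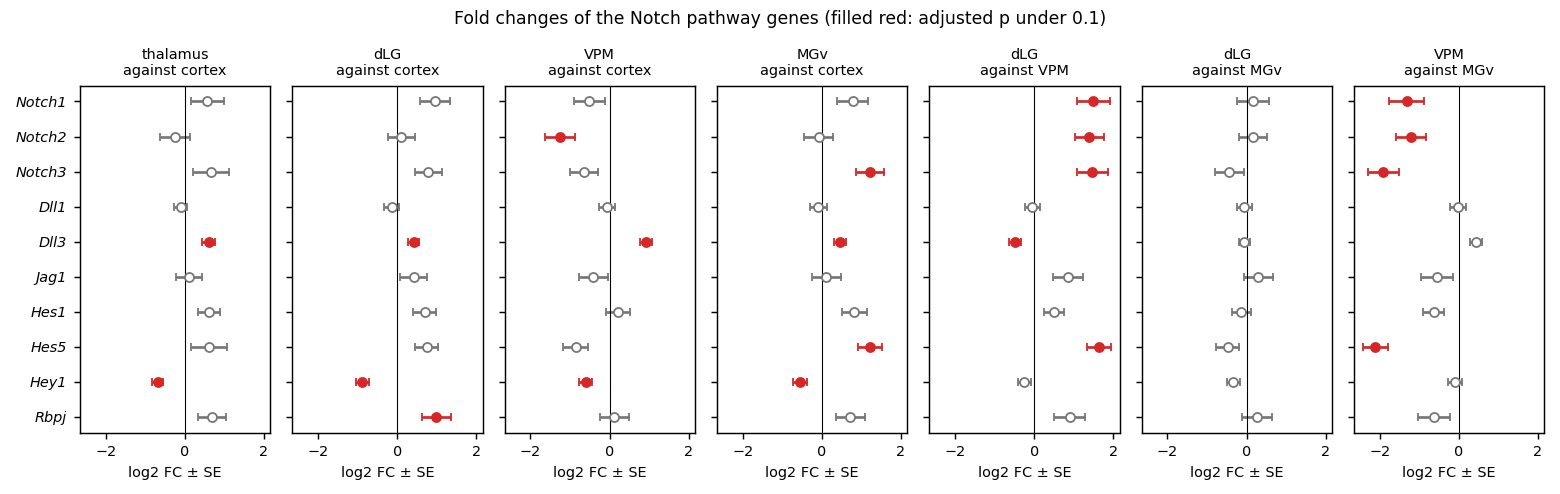
Log2 fold change with SE of the 10 genes in the 7 comparisons, with the genes on the vertical axis and 1 panel per comparison; filled red points have an adjusted p under 0.1. *Hey1* is negative and *Dll3* positive in all 4 panels against cortex, and the 3 receptors and *Hes5* lie above 0 in dLG against VPM and below 0 in VPM against cortex and VPM against MGv.

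*Hey1*, a repressor of the Hairy/enhancer-of-split family (chromosome 3, 8663359 to 8667256, minus strand, GRCm38), was lower in the thalamus. It measured 291, 234, 258 and 220.4 CPM in cortex (replicates a to d) and 141, 123, 154, 148 and 115 CPM in dLG (a to e). VPM gave 150.2, 204, 161 and 143 CPM and MGv 157, 122, 227 and 178 CPM. All dLG and VPM libraries lay below all cortical ones, while 1 MGv library (c) lay inside the cortical range. The log2 fold change was -0.69 ± 0.14 (SE, 4 against 13 libraries, adjusted p = 0.00387) for thalamus against cortex, a 1.61-fold lower level. Against cortex it was -0.88 ± 0.16 in dLG (adjusted p = 0.00106), -0.61 ± 0.17 in VPM (0.0333) and -0.55 ± 0.17 in MGv (0.0430).

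Leaving out any 1 library kept the *Hey1* call for the thalamus and for dLG, with adjusted p up to 0.0298 and 0.00596. The VPM call was lost without cortex a, VPM a or VPM d (adjusted p up to 0.109), and the MGv call without cortex a, cortex c, MGv a or MGv b (up to 0.19). When only the largest series of library numbers was used (2 cortical and 8 thalamic), *Hey1* differed by -0.60 ± 0.21 (adjusted p = 0.167), which did not pass. The differences between nuclei were small: -0.25 ± 0.17 for dLG against VPM, -0.33 ± 0.17 for dLG against MGv and -0.09 ± 0.18 for VPM against MGv, all with adjusted p of 0.411 or more.

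*Dll3*, a divergent Delta-like ligand that is known to act inside the cell and to inhibit rather than activate Notch (chromosome 7, 28293553 to 28302238, minus strand), was higher in the thalamus, with its highest mean in VPM. Cortex gave 95.3, 112, 91.1 and 108 CPM and dLG 119, 130.3, 140.4, 156 and 131 CPM. VPM gave 217, 150.0, 216 and 188 CPM and MGv 119, 179.8, 125 and 136 CPM. Every thalamic library lay above every cortical one. Thalamus against cortex gave a log2 fold change of 0.61 ± 0.17 (1.52-fold, adjusted p = 0.0269). VPM against cortex gave 0.93 ± 0.15 (adjusted p = 0.000419), with dLG at 0.41 ± 0.14 (0.0604) and MGv at 0.46 ± 0.15 (0.0531).

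In the direct comparison dLG lay 0.48 ± 0.15 below VPM on the log2 scale (adjusted p = 0.0726), and VPM against MGv gave 0.42 ± 0.15 (adjusted p = 0.116), which did not pass. The *Dll3* calls for thalamus and VPM against cortex held without any 1 library (adjusted p up to 0.0947 and 0.00288). The dLG call against cortex was lost without cortex a or c (up to 0.151), the MGv call without cortex a or MGv b (up to 0.139), and the dLG call against VPM without dLG a, b, c or e or VPM a, c or d (up to 0.213). Within the largest series, thalamus against cortex gave 0.61 ± 0.24 (adjusted p = 0.23) and VPM against cortex 1.00 ± 0.22 (adjusted p = 0.0266).

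Markers of dividing cells moved in the same direction as *Dll3* in the thalamus as a whole and in VPM, and less clearly in MGv. Their sum over 6 genes ranged from 397 to 506 CPM in cortex, 481 to 652 in dLG, 595 to 738 in VPM and 445 to 588 in MGv. Of the 6, 5 were called higher in thalamus against cortex (5.45% of all genes) and 6 in VPM against cortex (3.56% of all genes). In dLG against cortex 4 were called higher (10.3% of all genes). In MGv against cortex only 1 was (7.87% of all genes), and *Ccnb1* had a lower mean in MGv (49.7 CPM) than in cortex (60.2 CPM). Over the 17 libraries, the genes closest to *Dll3* by root mean square difference of centred log2 CPM were *Top2a* (0.168), *Cp* (0.176) and *Cdc20* (0.180 log2 units), out of 17856 genes. *Top2a* encodes a topoisomerase of dividing cells and *Cdc20* an activator of the anaphase-promoting complex. *Top2a* averaged 121 CPM in cortex and 191 CPM in VPM. Oligodendrocyte precursor markers (5 genes), a lineage in which *Dll3* is known to be expressed, summed to 2466 to 3643 CPM in cortex and 2503 to 3830 CPM in the thalamus, overlapping ranges. Within that list *Bcas1* rose in VPM (429 to 529 CPM in cortex and 815 to 1310 in VPM, log2 1.09 ± 0.21, adjusted p = 0.00202), as did *Neu4* (means of 234 and 347 CPM, 0.57 ± 0.17, 0.0574). The rest of the list had lower means in VPM than in cortex: *Pdgfra* 1147 and 895 CPM in cortex and VPM, *Cspg4* 229 and 182, and *Gpr17* 772 and 753. The median log2 fold change of the list in VPM against cortex was -0.036. The part of dividing cells or of oligodendrocyte precursors in the *Dll3* result was not tested.

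*Hes5*, a repressor that is the best known Notch target of neural progenitors (chromosome 4, 154960923 to 154962371, plus strand), separated VPM from the other nuclei. Cortex gave 508, 248, 509.5 and 386 CPM and dLG 681, 752, 755, 482 and 804 CPM. VPM gave 207, 387, 158 and 159 CPM and MGv 774, 1615, 718 and 743 CPM. All VPM libraries lay below all dLG and all MGv libraries, and all MGv libraries lay above all cortical ones. The VPM and cortical ranges overlapped, since VPM b lay above cortex b and marginally above cortex d.

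The *Hes5* level in dLG was 3.11-fold that in VPM (log2 1.64 ± 0.31, adjusted p = 0.0128), and VPM was 4.32-fold lower than MGv (log2 -2.11 ± 0.32, adjusted p = 0.00246). Against cortex, MGv was 2.33-fold higher (log2 1.22 ± 0.31, adjusted p = 0.0167). For dLG against cortex the log2 fold change was 0.75 ± 0.29 (adjusted p = 0.10032) and for VPM against cortex -0.86 ± 0.31 (adjusted p = 0.118), so that neither was called. DESeq2 called both (adjusted p = 0.0531 and 0.068), and within the largest series VPM against cortex gave -1.52 ± 0.35 (adjusted p = 0.0335) and dLG against cortex 0.70 ± 0.34 (0.365). Over 25 settings *Hes5* was called in 12 for dLG and in 8 for VPM against cortex. Thalamus against cortex, which averages over nuclei on both sides of the cortical level, gave 0.62 ± 0.46 (adjusted p = 0.479). Without any 1 library the *Hes5* calls held in dLG against VPM (adjusted p up to 0.0634), VPM against MGv (up to 0.0136) and MGv against cortex (up to 0.0699), and within the largest series they gave 2.21 ± 0.36 (0.0417), -2.64 ± 0.35 (0.00659) and 1.12 ± 0.31 (0.0570). The MGv mean of 962.5 ± 435 CPM (SD, n = 4) includes the 1615 CPM of library b.

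An annotated gene on the opposite strand, *Gm20421*, overlaps 31.8% of the exonic length of *Hes5*, and the counting by strand is not stated. *Gm20421* was at 0.450 to 16.4 CPM over the 17 libraries, highest in MGv b, and below *Hes5* in each. VPM, the nucleus with the lowest *Hes5*, was also the one with the lowest *Gfap* (above). In MGv, *Gfap* was 36.1, 600.4, 5519 and 1292 CPM in libraries a to d. Of the 8 astrocyte markers, 3 were called higher and 0 lower in dLG against VPM (6.48% and 3.16% of all genes). In VPM against MGv 1 was called higher and 2 lower (4.53% and 6.89% of all genes). The part of *Gfap* level, of other astrocyte markers or of sorting in the *Hes5* result was not tested.

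*Hes1*, the repressor that shares targets with *Hes5* (chromosome 16, 30064384 to 30067796, plus strand), varied widely within groups. Cortex gave 261, 89.5, 141 and 96.1 CPM and dLG 282, 234, 199, 230.4 and 244 CPM. VPM gave 147, 286, 129.9 and 121 CPM and MGv 318, 327, 203 and 193 CPM. Cortex a and VPM b stood far above the other libraries of their groups. The log2 fold change was 0.61 ± 0.28 for thalamus against cortex (adjusted p = 0.214), 0.69 ± 0.30 for dLG (0.131) and 0.82 ± 0.31 for MGv (0.10006), none past the threshold. Without cortex a the adjusted p of *Hes1* in thalamus against cortex was 0.0318, and within the largest series, which lacks that library, the MGv contrast gave 1.15 ± 0.26 (adjusted p = 0.0219). Between nuclei, dLG against VPM gave 0.50 ± 0.25 (adjusted p = 0.242) and VPM against MGv -0.64 ± 0.26 (0.152), and neither passed. Without VPM b, Hes1 in dLG against VPM was called at 0.87 ± 0.19 (adjusted p = 0.0314), and Hes1 in VPM against MGv at -0.999 ± 0.198 (0.0145). VPM against MGv was also called within the largest series (-1.09 ± 0.25, adjusted p = 0.0366) and by DESeq2.

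The receptors were lowest in VPM. *Notch1* (chromosome 2, 26457903 to 26516663, minus strand) measured 47.5, 50.7, 75.5 and 49.8 CPM in cortex and 49.2, 91.9, 197, 36.4 and 166 CPM in dLG. VPM gave 34.5, 51.3, 43.3 and 27.6 CPM and MGv 71.5, 137, 88.5 and 86.3 CPM. The dLG libraries c and e stood far above dLG a and d, and all VPM libraries lay below all MGv ones. Library dLG c, with the highest *Notch1* level, also had the fewest genes detected (17749) and is the only library of its series. *Notch1* was 2.82-fold higher in dLG than in VPM (log2 1.497 ± 0.42, adjusted p = 0.0572) and 2.51-fold lower in VPM than in MGv (log2 -1.32 ± 0.43, adjusted p = 0.0831). Against cortex the log2 fold changes were 0.95 ± 0.38 in dLG (adjusted p = 0.105), -0.51 ± 0.39 in VPM (0.611), 0.78 ± 0.39 in MGv (0.230) and 0.57 ± 0.43 in the thalamus (0.486), none past the threshold.

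*Notch3*, the receptor best known from vascular mural cells (chromosome 17, 32120820 to 32166852, minus strand), measured 34.3, 28.3, 45.7 and 34.7 CPM in cortex and 43.4, 71.3, 70.5, 26.6 and 97.4 CPM in dLG. VPM gave 14.3, 33.5, 26.1 and 17.3 CPM and MGv 53.2, 144, 71.3 and 65.6 CPM. All MGv libraries lay above all cortical and all VPM ones. MGv was 2.33-fold above cortex (log2 1.22 ± 0.36, adjusted p = 0.0361), dLG 2.78-fold above VPM (log2 1.47 ± 0.38, adjusted p = 0.0447) and VPM 3.75-fold below MGv (log2 -1.91 ± 0.40, adjusted p = 0.0150). *Notch3* was not called in the thalamus as a whole (0.66 ± 0.45, adjusted p = 0.439), in dLG against cortex (0.79 ± 0.34, 0.137) or in VPM against cortex (-0.65 ± 0.36, 0.396). Markers of mural cells (7 genes) summed to 38.4 to 65.3 CPM in cortex, 2.12 to 12.4 CPM in VPM and 2.93 to 14.5 CPM in MGv. The VPM and MGv sums overlapped, and both lay below those of cortex. In dLG the sums ran from 4.30 to 39.3 CPM, with dLG a inside the cortical range. The 5 mural markers tested in dLG against VPM had a median log2 fold change of 1.13, and 0 were called. Most of the cortical sum was *Pdgfrb* (mean 38.1 CPM in cortex, 1.55 in VPM and 3.52 in MGv) and *Rgs5* (11.2, 3.39 and 1.38), while *Vtn* had means of 1.37, 1.70 and 1.16 CPM, *Higd1b* of 0.176, 0.543 and 0.1499 and *Abcc9* of 0.390, 0.332 and 0.978. The part of mural cells in the *Notch3* result was not tested.

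*Notch2* (chromosome 3, 98013527 to 98150361, plus strand) measured 13.1, 19.0, 27.8 and 12.5 CPM in cortex and 11.7, 17.8, 27.4, 10.4 and 30.0 CPM in dLG. VPM gave 4.82, 11.5, 8.20 and 5.86 CPM and MGv 11.3, 25.2, 17.3 and 14.9 CPM. All VPM libraries lay below all cortical ones. VPM was 2.39-fold below cortex (log2 -1.25 ± 0.37, adjusted p = 0.0497) and 2.32-fold below MGv (log2 -1.21 ± 0.38, adjusted p = 0.0735), and dLG was 2.62-fold above VPM (log2 1.39 ± 0.37, adjusted p = 0.0484). Thalamus, dLG and MGv against cortex gave -0.26 ± 0.38, 0.10 ± 0.35 and -0.07 ± 0.37, with adjusted p of 0.756 or more.

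Transcripts that are long and rich in G and C moved together between libraries, and the 3 receptors belong to this class. The longest transcripts of *Notch1*, *Notch2* and *Notch3* have 9488, 10500 and 8016 bases and a GC content of 57.1%, 53.6% and 59.6%. The median log2 level of 398 genes of the class (over 6000 bases and over 52% GC), relative to the mean over the 17 libraries, was highest in dLG e (0.689), MGv b (0.638) and dLG c (0.600) and lowest in VPM d (-0.441) and cortex a (-0.434). All 4 VPM libraries were between -0.441 and -0.283. In the comparisons, all tested genes of the class were used, 493 between nuclei and 498 against cortex. Their median log2 fold change was 0.739 in dLG against VPM, where 38.9% were called higher, and -0.80 in VPM against MGv (39.8% lower). It was 0.57 in MGv against cortex and -0.143 in VPM against cortex. All genes had medians of 0.009, -0.042, 0.001 and 0.027 in these 4 comparisons. *Hes5* is short (1273 bases) with 62.1% GC, and *Dll3*, *Hes1*, *Hey1*, *Dll1*, *Jag1* and *Rbpj* are all under 6000 bases.

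**Figure D3:**
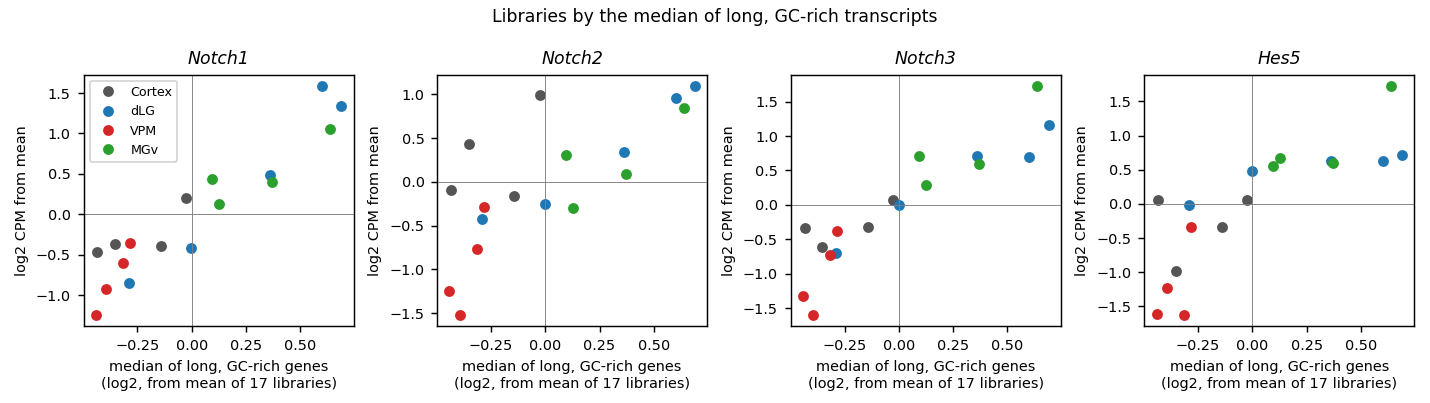
Log2 CPM of *Notch1*, *Notch2*, *Notch3* and *Hes5* in each library, as the difference from the mean over 17 libraries (vertical axis), against the median of the long, GC-rich class in the same library (horizontal axis, log2). In dLG c, dLG e and MGv b the class median is at least 0.600 and all 3 receptors lie above their means, while the VPM libraries, with class medians of -0.441 to -0.283, lie below 0 in all 4 panels.

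The fits were repeated with offsets per library for transcript length and GC content, a step chosen after seeing the data. In dLG against VPM the receptors then gave 0.58 ± 0.26 for *Notch1* (adjusted p = 0.231), 0.74 ± 0.26 for *Notch2* (0.143) and 0.53 ± 0.21 for *Notch3* (0.189), so that all 3 calls were lost. In VPM against MGv, *Notch3* kept its call at -0.88 ± 0.22 (adjusted p = 0.0381), while *Notch1* at -0.48 ± 0.27 (0.355) and *Notch2* at -0.61 ± 0.27 (0.24) lost theirs. Against cortex, *Notch3* in MGv lost its call at 0.40 ± 0.20 (adjusted p = 0.236), *Notch2* in VPM kept it at -1.23 ± 0.28 (0.00796), and *Notch2* was also called lower in the thalamus as a whole (-0.69 ± 0.25, 0.0916). *Hes5* was called with the offsets in dLG against VPM (1.46 ± 0.23, adjusted p = 0.00434) and in VPM against MGv (-1.88 ± 0.24, 0.000616), and it was also called lower in VPM against cortex (-0.91 ± 0.24, 0.0242). *Dll3* passed in all 6 comparisons that involve cortex or VPM, with 0.56 ± 0.12 in VPM against MGv (adjusted p = 0.0199). *Hes1* passed in dLG against cortex (0.69 ± 0.26, 0.0892), MGv against cortex (0.85 ± 0.27, 0.0544) and VPM against MGv (-0.76 ± 0.23, 0.0753), and *Hey1* in MGv against cortex was just lost (-0.42 ± 0.16, 0.102).

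**Figure D4:**
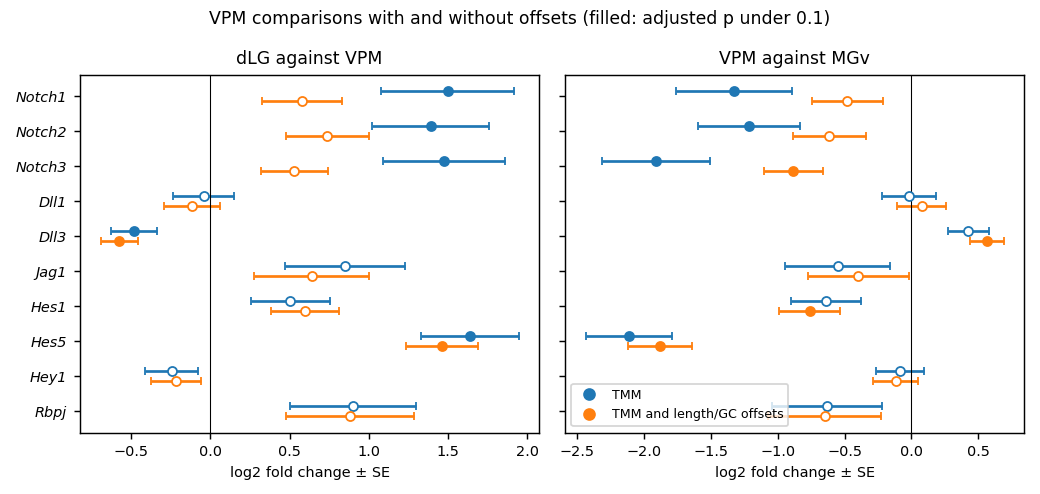
Log2 fold change with SE of the 10 genes in dLG against VPM (left) and VPM against MGv (right), scaled by TMM (blue) and with the added offsets for length and GC content (orange); filled points have an adjusted p under 0.1. The values of *Notch1*, *Notch2*, *Notch3* and *Hes5* move towards 0 with the offsets. Those of *Hes5* go from 1.64 to 1.46 (left) and from -2.11 to -1.88 (right), and both keep an adjusted p under 0.1.

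The receptor calls also rested on single libraries. Without VPM a, c or d, *Notch1*, *Notch2* and *Notch3* were each lost in dLG against VPM, and *Notch1* was lost there without dLG c or e and *Notch2* without dLG e (adjusted p up to 0.166, 0.16 and 0.151). Calls over all genes fell in these fits too. From 1122 higher and 548 lower they went to 288 and 125 without VPM a. Without VPM c they were 253 and 104, and without VPM d 331 and 167. Without dLG c they were 824 and 365, and without dLG e 649 and 353. In VPM against MGv, *Notch1* was lost without MGv b, c or d, VPM a, c or d, or dLG b (up to 0.218) and *Notch2* without the same MGv and VPM libraries (up to 0.207), while *Notch3* held in all 13 (up to 0.0629). Over all genes 785 were higher and 1194 lower in the main fit of that pair. Without VPM a, c or d, 268, 288 and 365 were higher and 444, 445 and 487 lower. Without MGv b, c or d, 451, 528 and 490 were higher and 579, 879 and 641 lower. Without dLG b they were 658 and 946. *Notch2* in VPM against cortex was lost without cortex c or VPM a, c or d (up to 0.201), and *Notch3* in MGv against cortex without cortex b or MGv b (up to 0.158). In VPM against cortex, 636 of all genes were higher and 971 lower in the main fit, and 445 and 790 without cortex c. Without VPM a, c or d, 464, 472 and 477 were higher and 753, 803 and 811 lower. In MGv against cortex, 1405 and 1341 became 814 and 830 without cortex b, and 1019 and 793 without MGv b. Within the largest series, VPM against MGv gave -1.47 ± 0.33 for *Notch1* (adjusted p = 0.0353), -1.33 ± 0.35 for *Notch2* (0.0595) and -1.98 ± 0.40 for *Notch3* (0.0274), and dLG against VPM, with 2 libraries each, gave 1.03 ± 0.36, 1.10 ± 0.39 and 1.44 ± 0.43 (0.242, 0.247 and 0.187).

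*Dll1*, a ligand that activates Notch in the neighbouring cell (chromosome 17, 15367354 to 15376872, minus strand), was called in no comparison. Its levels were 90.0, 73.4, 54.8 and 87.6 CPM in cortex and 56.5, 59.1, 98.4, 87.2 and 46.1 CPM in dLG. VPM gave 80.2, 73.4, 71.1 and 66.8 CPM and MGv 66.5, 62.1, 84.0 and 75.5 CPM. The groups overlapped, and the log2 fold changes in the 7 comparisons lay between -0.14 ± 0.20 (dLG against cortex) and -0.02 ± 0.20 (VPM against MGv), with adjusted p of 0.693 or more. *A930024N18Rik* overlaps 20.6% of its exonic length on the opposite strand.

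*Jag1*, the Jagged ligand (chromosome 2, 137081456 to 137116644, minus strand), was low in all groups. Cortex gave 7.54, 8.45, 8.95 and 11.3 CPM and dLG 5.24, 8.36, 26.8, 10.1 and 10.03 CPM. VPM gave 6.45, 9.03, 5.10 and 6.75 CPM and MGv 11.8, 9.32, 8.73 and 9.29 CPM. Only dLG c, at 26.8 CPM, left the common range, and the largest difference, dLG against VPM, was 0.85 ± 0.38 on the log2 scale (adjusted p = 0.200). Without dLG c it was 0.34 ± 0.26 (adjusted p = 0.479). With library number series as a covariate, which drops dLG c, *Jag1* was called lower in VPM than in MGv (-0.81 ± 0.25, adjusted p = 0.0874), against -0.55 ± 0.39 (0.439) without it.

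*Rbpj*, the protein that Notch signals converge on (chromosome 5, 53466152 to 53657362, plus strand), gave 5.46, 6.14, 7.47 and 5.11 CPM in cortex and 8.93, 11.2, 14.5, 5.32 and 20.1 CPM in dLG. VPM gave 6.83, 8.86, 5.30 and 5.37 CPM and MGv 7.45, 16.98, 5.13 and 10.4 CPM. Of the dLG libraries 4 lay above all cortical ones and dLG d lay inside their range. *Rbpj* was 1.99-fold higher in dLG than in cortex (log2 0.99 ± 0.36, adjusted p = 0.0787), and this call was lost without cortex a, b or d or dLG b, c or e (adjusted p up to 0.195) and within the largest series (0.695 ± 0.473, adjusted p = 0.545). In the other comparisons it was not called, with 0.68 ± 0.35 for thalamus against cortex (adjusted p = 0.274) and 0.90 ± 0.40 for dLG against VPM (0.193).

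Of 51 other genes of the pathway, 50 had counts and 49 were tested. Between thalamus and cortex 3 rose and 6 fell, where 5.45% of all genes were called higher and 5.93% lower. Their median log2 fold change was -0.09 and that of all genes 0.02. Of 9 genes for inhibition and turnover of the receptors 2 fell, *Numb* and *Nrarp*. *Numb*, an endocytic adaptor that antagonizes Notch, went from 54.5 to 67.4 CPM in cortex to a range of 10.8 to 35.9 (median 22.4) in the thalamus, 2.55-fold lower (log2 -1.35 ± 0.21, adjusted p = 0.000239). *Nrarp*, a feedback inhibitor that Notch itself induces, went from 101 to 119.9 CPM in cortex to 37.7 to 73.5 CPM (median 59.3), 2.01-fold lower (log2 -1.01 ± 0.17, adjusted p = 0.000455). All 13 thalamic libraries lay below all cortical ones for both genes. An annotated gene on the other strand, *Gm38287*, overlaps 79.4% of *Nrarp*'s exonic length.

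Of the 5 genes for glycosylation of the receptors, 2 fell, and both are Fringe glycosyltransferases, which change the preference of Notch for its ligands. *Lfng* averaged 222 ± 57.8 CPM in cortex (SD, n = 4) and 118 ± 34.0 in the thalamus (n = 13), with a log2 fold change of -0.91 ± 0.20 (adjusted p = 0.00517). *Mfng* averaged 9.82 ± 1.72 and 3.43 ± 1.66 CPM (-1.51 ± 0.41, adjusted p = 0.0265), and all thalamic libraries lay below all cortical ones. *Rfng*, the remaining Fringe, was not called.

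*Heyl*, a relative of *Hey1*, was 28.9 to 39.6 CPM in cortex, 3.78 to 14.5 in dLG, 4.85 to 7.70 in VPM and 16.3 to 27.5 in MGv, and every thalamic library lay below every cortical one (log2 -1.50 ± 0.40, adjusted p = 0.0227). It was also lower in VPM than in MGv (-1.95 ± 0.36, adjusted p = 0.00777), the lowest p in that pair among the 49 genes. *Heyl* is known from vascular mural cells, and their 7 markers summed to 38.4 to 65.3 CPM in cortex and 2.12 to 39.3 CPM in the thalamus, with *Pdgfrb* at 38.1 CPM in cortex as the highest and *Higd1b* at 0.176 CPM as the lowest. Only some of the list followed the sum: *Vtn*, *Abcc9* and *Higd1b* had higher means in the thalamus (2.12, 0.775 and 0.702 CPM) than in cortex (1.37, 0.390 and 0.176 CPM). The part of mural cells in the fall of *Heyl* was not tested. *Ncstn*, a subunit of the gamma-secretase that cleaves Notch, was the 1 of 10 cleavage genes to fall (-0.43 ± 0.15, adjusted p = 0.0831).

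The 3 that rose were *Dlk1*, *Mib1* and *Spen*. *Dlk1*, a non-canonical ligand, was near the floor in cortex (0.0983 to 0.241 CPM), ranged from 0.112 to 1.003 CPM in VPM and reached 1.17 to 3.49 CPM in dLG and 1.14 to 4.32 CPM in MGv, with a log2 fold change of 3.57 ± 0.82 for thalamus against cortex (adjusted p = 0.00846). *Mib1*, a ubiquitin ligase that drives ligand endocytosis, averaged 56.5 ± 11.8 CPM in cortex and 93.4 ± 26.3 in the thalamus (0.73 ± 0.21, adjusted p = 0.0403). *Spen*, a corepressor partner of *Rbpj*, averaged 49.5 ± 5.38 and 70.7 ± 13.3 CPM (0.51 ± 0.15, adjusted p = 0.0426). With the offsets for length and GC content *Spen* was lost (0.08 ± 0.20, adjusted p = 0.856), and *Numb*, *Nrarp*, *Lfng*, *Mfng*, *Heyl*, *Ncstn*, *Dlk1* and *Mib1* kept their calls (adjusted p up to 0.0847). The offsets also gave 3 calls not made without them, lower *Notch4* (-0.98, adjusted p = 0.0142), *Furin* (-0.60, 0.0173) and *Numbl* (-0.56, 0.0675).

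**Figure D5:**
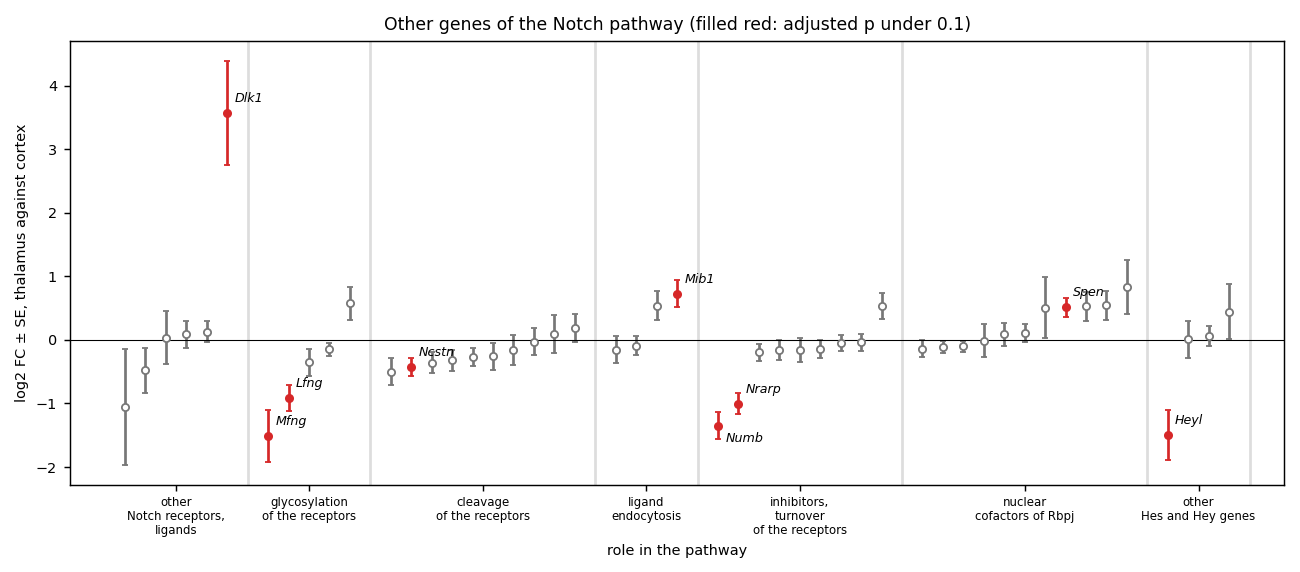
Log2 fold change with SE of the 49 tested pathway genes other than the 10, thalamus against cortex, grouped along the horizontal axis by role and ordered by value within each role; filled red points have an adjusted p under 0.1 and are named. *Numb*, *Nrarp*, *Lfng*, *Mfng*, *Heyl* and *Ncstn* lie below 0 and *Dlk1*, *Mib1* and *Spen* above it.

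Against cortex the 49 genes gave 9 higher and 7 lower in dLG (10.3% and 9.04% of all genes), 8 lower and 0 higher in VPM (5.44% and 3.56% of all genes, 12 with an unadjusted p under 0.05, and 10 lower and 1 higher in DESeq2), and 6 higher and 6 lower in MGv (7.87% and 7.51% of all genes). Between the nuclei, 6 were higher in dLG than in VPM and 0 lower (6.48% and 3.16% of all genes, 16 with an unadjusted p under 0.05, and 12 higher and 1 lower in DESeq2), and 12 were lower in VPM than in MGv and 0 higher (6.89% and 4.53% of all genes, 17 with an unadjusted p under 0.05, and 14 lower and 0 higher in DESeq2). The lowest p in dLG against VPM belonged to *Hey2*, a further Hey repressor, at 30.2 to 44.8 CPM in dLG and 14.1 to 28.8 CPM in VPM (log2 1.08 ± 0.25, adjusted p = 0.0319), to the coactivator *Maml1* (1.45 ± 0.35, 0.0352) and to the acetyltransferase *Ep300* (0.81 ± 0.22, 0.0501). In VPM against MGv, *Hey2* (-1.23 ± 0.27, adjusted p = 0.0170) and *Numbl* (-0.75 ± 0.19, 0.0316) followed *Heyl*. In dLG against MGv edgeR called 0 of 49 in either direction (0.37% and 0.277% of all genes), 2 had an unadjusted p under 0.05, and DESeq2 called 1 higher and 1 lower.

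For the 3 genes of the 10 with the lowest p between thalamus and cortex, the most alike of 17856 genes over the 17 libraries were sought by the same distance as for *Dll3* above. For *Hey1* they were *Ptprk* (0.165 log2 units), *Pon2* (0.192) and *Cyp2j9* (0.193), against a spread of *Hey1* itself of 0.389. For *Hes1* they were *Prm1* (0.238), *Cep85l* (0.254) and *Jmjd1c* (0.296), against a spread of 0.571. These distances are a description over libraries that share groups and depth.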

How the data were processed

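Total RNA of sorted astrocytes was amplified with a SMARTer Ultra Low kit and sequenced as single reads of 50 bases. The authors trimmed reads, mapped them to GRCm38 (mm10) with STAR 2.7.0d, counted them with featureCounts (Subread 1.6.4) on Ensembl 95 and deposited raw counts per gene. The strand setting of the counts is not given in the sources used here. Amplification from little RNA and short single reads can make counts depend on transcript length and GC content.

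Symbols and positions came from Ensembl release 96, which matched 26548 of 26556 identifiers, and 0 columns of samples were left unused. CPM was scaled by TMM in edgeR (4.0.16, R 4.3.3), TPM used exonic length, and log2 CPM a prior count of 2. Groups came from the labels. The main test was edgeR's robust quasi-likelihood test after filterByExpr, with Benjamini-Hochberg adjustment over all genes and the threshold of 0.1 that the study used. Thalamus and cortex were fitted as 2 groups, nuclei against cortex in a fit of 4 groups of 17 libraries, and pairs of nuclei in a fit of the 13 thalamic libraries. SE is the size of the log2 fold change divided by the root of F.

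Alternatives were DESeq2 (1.42.0), its size factors, no filter, the replicate letter as a block, library number series as a covariate, other groups in the fit and each library left out, and, added after seeing the data, the largest series alone and offsets per library (medians of 8 by 8 bins of longest transcript length and GC content). The tests were checked on simulated data with 200 changed genes.

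The 10 genes and the pathway and marker lists were chosen with earlier results of these data known. All 10 are given in each comparison. Named besides are pathway genes called between thalamus and cortex, up to 3 with the lowest p per pair of nuclei, markers that drive the reporter, are highest or lowest in their list or lie nearest to a gene, and the 3 nearest genes. *Gfap*, *Top2a*, single astrocyte, mural and oligodendrocyte precursor markers and *Notch4*, *Furin* and *Numbl* with offsets were named after their values were seen. Nothing says that libraries of a group come from separate litters, so p-values measure the spread between pools. Sequences are from RefSeq's promoter set (GRCm38.p6), and figures were drawn with matplotlib 3.10.9.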

Additional observations from a re-analysis of the deposited data

Results flagged for a closer look

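In 40 sets of 4 or 5 libraries (10 genes in 4 groups), 4 held 1 library far from the rest by Dixon's test, which chance does in about 1 of 20 sets. These were *Notch1* in cortex c (75.5 CPM), *Jag1* in dLG c (26.8 CPM), *Hes1* in VPM b (286 CPM) and *Hes5* in MGv b (1615 CPM).

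Nuclei differed directly from each other in 9 results, which means that their contrasts with the shared cortex differed. On the log2 scale, dLG against VPM gave 1.5 for *Notch1*, 1.39 for *Notch2*, 1.47 for *Notch3*, -0.48 for *Dll3* and 1.64 for *Hes5*. VPM against MGv gave -1.32 for *Notch1*, -1.21 for *Notch2*, -1.91 for *Notch3* and -2.11 for *Hes5*. For *Hes5* the contrast with cortex was negative in VPM (-0.86) and positive in MGv (1.22). The long, GC-rich class to which the receptors belong had medians of 0.739 and -0.80 in these pairs.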

How the results depend on the processing

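Of the 10 genes, the number called was the same or within 1.5 times under the alternatives except where given here. DESeq2 called 7 in dLG against cortex in place of 3, and its size factors in edgeR 5. Over all genes 1843 were higher and 1614 lower there in the main fit. DESeq2 gave 2537 and 1870, and its size factors 2013 and 1483. With library number series as a covariate, which gives dLG c its own term and so drops it, 1 was called in dLG against cortex (*Hey1*) and 1 of 5 in dLG against VPM (*Hes5*). Over all genes this fit called 1519 higher and 1449 lower in dLG against cortex. In dLG against VPM it called 586 and 228, against 1122 and 548 in the main fit. Within the largest series 0 in place of 2 were called in thalamus against cortex, 1 in dLG against cortex (*Hes1*), 2 in place of 4 in MGv against cortex and 1 in place of 5 in dLG against VPM. Calls over all genes fell as well. Higher and lower calls went from 974 and 1059 to 348 and 586 in thalamus against cortex. They were 447 and 507 in dLG against cortex and 73 and 23 in dLG against VPM. In MGv against cortex they went from 1405 and 1341 to 833 and 804. In thalamus against cortex the 0 stands for edgeR with 10 libraries. With the offsets for length and GC content 2 in place of 5 were called in dLG against VPM, where 627 of all genes were higher and 414 lower. The cause of these changes was not tested, except that fewer libraries entered the series fits.

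Leaving out 1 library gave 2 to 3 calls in thalamus against cortex, 2 to 6 in dLG against cortex (6 without dLG d or MGv b, 5 without VPM b, 2 without cortex a, b or d or dLG b, c or e), 1 to 4 in VPM against cortex (1 without VPM a or d), 1 to 5 in MGv against cortex (1 without MGv b), 1 to 6 in dLG against VPM (1 without VPM a, c or d, 2 without dLG e, 3 without dLG c), 0 to 0 in dLG against MGv and 2 to 6 in VPM against MGv (2 without MGv c or d or VPM a, c or d). Calls over all genes also varied between these fits. In dLG against VPM they ran from 253 higher and 104 lower (without VPM c) to 1827 and 1320 (without dLG d). In dLG against cortex they were 1135 and 1069 without cortex b and 2321 and 2383 without dLG d. The replicate letters gave little sign of pairing: of 24 pairs with the same letter, 4 had correlated deviations over 0.1, with a range of -0.157 to 0.219. Whether regions share pooled brains is not stated in the sources used here, and a matching other than by letter was not tested. The fit with the replicate block, which gives dLG e its own term, called 1 in dLG against cortex, 5 in place of 3 in VPM against cortex, and counts within 1.5 times in the other comparisons. Over all genes it called 1320 higher and 1274 lower in dLG against cortex. In VPM against cortex it called 739 and 1092, against 636 and 971 in the main fit.

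Of 1630 single-gene values under alternatives, 1477 stayed on their side of the threshold, 84 lost a call, 69 gained one and 0 changed sign with a call. Levels near the floor (*Dlk1* in cortex) are limited by depth.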
